A study of Homo sapiens with 12 samples.

Results

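The apoptotic caspases and apoptosome genes are 8 genes that start, carry out or restrain caspase activation, CASP2, CASP6, CASP8, CASP9, CASP10, APAF1, DIABLO and XIAP. They were chosen by symbol, and every feature of the array whose RefSeq identifier maps to one of these symbols was taken, which gave 12 of the 45033 features and 8 of the 17185 named genes. CASP6, CASP9, CASP10 and DIABLO were read by 2 features each, and the other 4 genes by 1. HCT116 is an established human cell line from a colon cancer, and its total RNA was hybridized to 12 one-colour arrays. The 4 groups of 3 arrays each were p53-/- INZ, p53-/- DMSO, p53+/+ INZ and p53+/+ DMSO. INZ (inauhzin) is a small molecule that activates p53, it was given at 4 μM, and cells were harvested after 18 hours. DMSO is the solvent control. The p53-/- line is described in the labels as p53-null, and no source used here says whether it is 1 clone. The arrays of a group are labelled biological replicates. The comparisons ask whether RNA of the caspase machinery differs after INZ, whether it differs between cells with and without p53, and whether the INZ effect itself differs between them.

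Caspases are proteases that are made as inactive precursors. Initiator caspases are activated on protein platforms, and executioner caspases are activated by cleavage. In the intrinsic pathway, cytochrome c released from mitochondria makes APAF1 assemble into the apoptosome, a wheel-shaped complex on which caspase-9 is activated. In the extrinsic pathway, death receptors recruit the adaptor FADD, on which caspase-8 and caspase-10 are activated. XIAP binds and blocks some of the active caspases, not all, and DIABLO (also called Smac), once released from mitochondria, displaces XIAP from them. Most of this control acts on the proteins, which the arrays did not measure.

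CASP9 was the only member called in any comparison, by 1 of its features and only in the averaged INZ effect that was added after the values were seen, so the DNA before its start is shown with that of CASP8, the initiator of the death receptor pathway, and APAF1, its partner in the apoptosome. The sequences are the 250 bases before a RefSeq start on GRCh38.p14, 5′ to 3′ on the strand of the gene. Capitals mark each match on either strand to GGGCGG, the core of the GC box bound by Sp1-type factors, and matches can overlap. The CASP9 window is chr1:15524216-15524465 on the minus strand, the CASP8 window chr2:201233213-201233462 on the plus strand, and the APAF1 window chr12:98645040-98645289 on the plus strand.
CASP9: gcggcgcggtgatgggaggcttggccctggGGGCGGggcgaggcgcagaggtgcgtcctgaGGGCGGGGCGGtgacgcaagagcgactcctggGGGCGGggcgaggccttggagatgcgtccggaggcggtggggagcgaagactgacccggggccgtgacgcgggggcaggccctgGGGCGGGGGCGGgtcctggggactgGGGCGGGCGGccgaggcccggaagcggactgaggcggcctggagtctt
CASP8: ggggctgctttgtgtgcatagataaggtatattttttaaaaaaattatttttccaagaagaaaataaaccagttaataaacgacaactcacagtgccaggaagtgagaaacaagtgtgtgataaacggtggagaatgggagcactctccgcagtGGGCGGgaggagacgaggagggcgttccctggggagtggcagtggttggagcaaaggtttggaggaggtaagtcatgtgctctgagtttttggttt
APAF1: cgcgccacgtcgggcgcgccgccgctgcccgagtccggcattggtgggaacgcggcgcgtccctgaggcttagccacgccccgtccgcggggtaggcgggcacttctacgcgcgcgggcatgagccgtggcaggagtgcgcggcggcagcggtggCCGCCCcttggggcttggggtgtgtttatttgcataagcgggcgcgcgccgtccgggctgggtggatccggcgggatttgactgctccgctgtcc
The CASP9 window held 8 matches, and 0.584% of the 35116 RefSeq windows of this length held as many. The CASP8 and APAF1 windows held 1 each, and 42.6% of all windows held at least 1. G and C made up 77.6% of the CASP9 window, 45.6% of the CASP8 window and 73.6% of the APAF1 window, against a median of 58.0% over all windows. The second CASP9 window also held 8 matches. RefSeq windows were found for 7 of the 8 genes, 16 windows in all, and 12 of the 16 held a GC box. Several genes have more than 1 window, and windows of XIAP overlap and share a GC box. The 16 are therefore not separate, and this share is no result about the genes. Other motifs were searched on both strands in the same windows. The AP-1 site TGAGTCA was in 1 of the 16, a CASP8 window (4.2% of all windows), and the p53 consensus half-site was in 2, one of CASP9 and one of CASP8 (5.57% of all windows). The E2F site (TTTCGCGC or TTTGGCGC, in 0.968% of all windows) and the E-box (CACGTG, in 6.34%) were in 0 of the 16. These are descriptions of letters. Which start is used in HCT116 cells was not measured.

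The values are RMA intensities, which are background-corrected and normalized between arrays, and are given here as log2. A difference of 1 on this scale is 2-fold. A feature's level also reflects its probes, and the genes are therefore not ranked by abundance. Differences were tested with limma over all 45033 features, and a feature was called changed where the Benjamini-Hochberg adjusted p was under 0.05. The median intensity per array was 87.1 to 93.9, and no arrays held identical values. The array of p53+/+ DMSO replicate 1 lay at one end of the first principal component (41.3% of the variance), at -175.7, and that of p53+/+ INZ replicate 3 lay away from its group, at 92.4, beside the p53-/- INZ arrays at 70.6 to 104.1. The lower quartile of intensity was 44.2 to 45.1 on the p53-/- INZ arrays, 45.9 to 46.6 on the p53-/- DMSO arrays, 44.2 to 47.1 on the p53+/+ INZ arrays and 46.7 to 49.5 on the p53+/+ DMSO arrays. It did not overlap between treatments in p53-/- cells, overlapped in p53+/+ cells, and with DMSO was lower on every p53-/- array than on every p53+/+ array. The p53 target TP53I3 rose with INZ in p53+/+ cells by 4.04 (adjusted p = 1.39e-05), and the genotypes differed in this effect by -4.47 (adjusted p = 0.000982). CDKN1A (NM_078467), the p53 target that encodes the cell cycle inhibitor p21, rose with INZ in p53+/+ cells by 1.85 (adjusted p = 0.0113), a call that held in 17 of 21 settings, and p53-/- cells were lower than p53+/+ cells with INZ by a log2 difference of -2.75 (adjusted p = 0.000427). Its difference of INZ effects, -2.32, did not pass (adjusted p = 0.126). Of 10 colon epithelial markers 6 were at or above the median feature. Of 4 leukocyte markers 1 was, and the defining marker PTPRC was not.

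**Figure D1:**
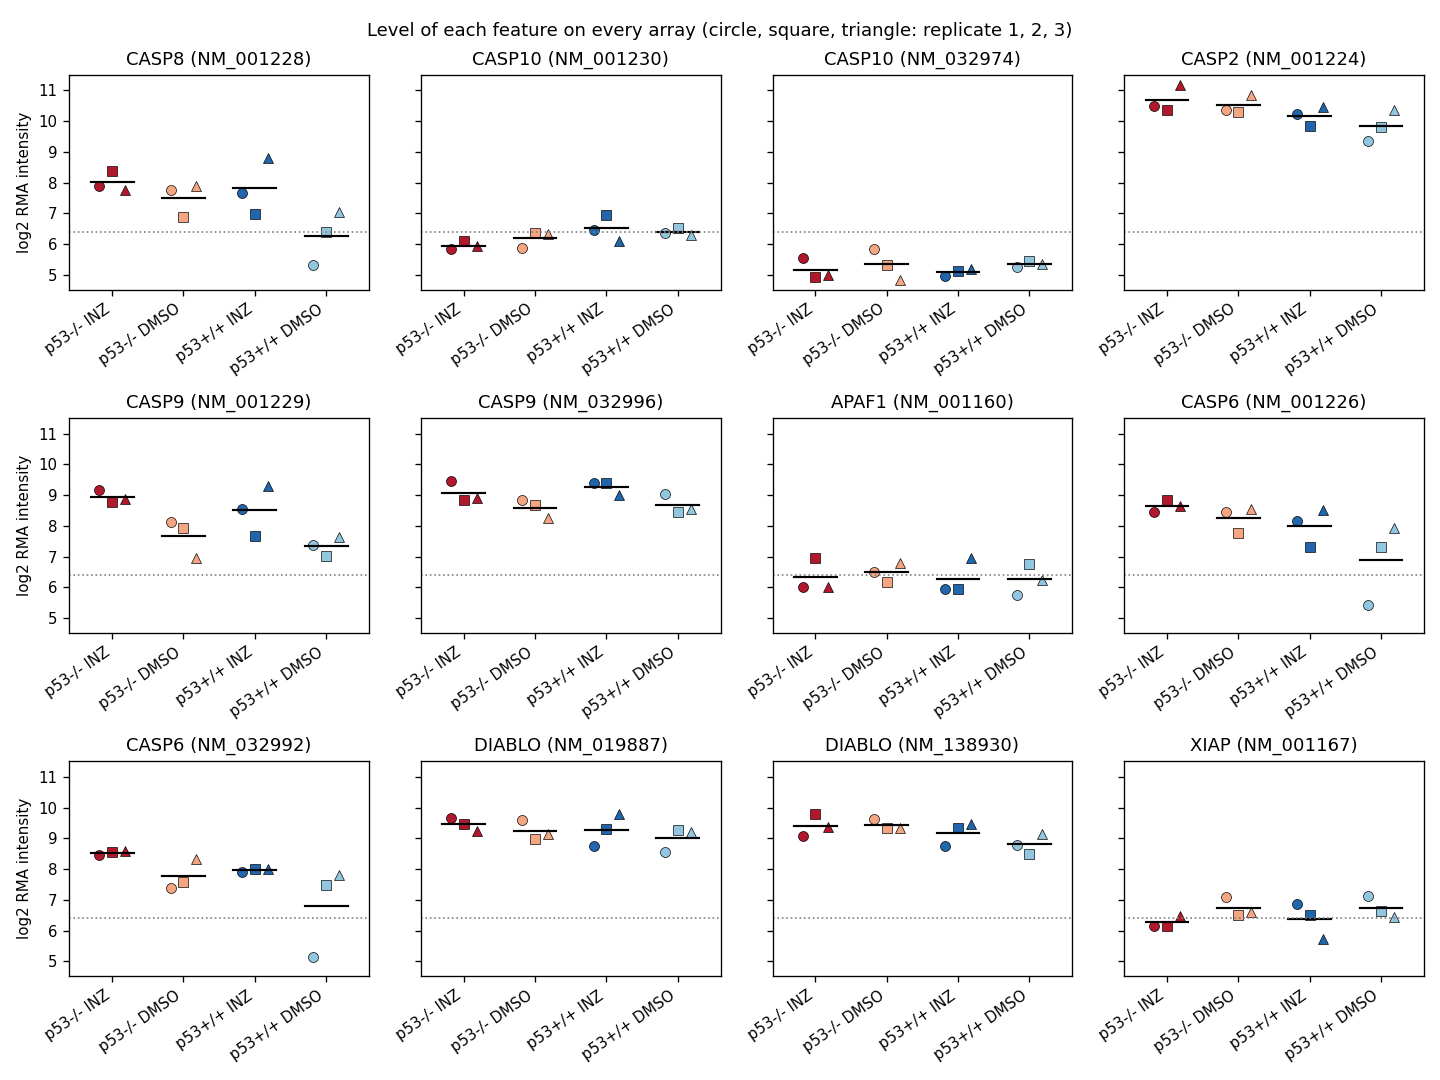
Level of each of the 12 features on every array, as log2 RMA intensity, with 1 panel per feature and the groups in the order p53-/- INZ, p53-/- DMSO, p53+/+ INZ and p53+/+ DMSO. Circles, squares and triangles are replicates 1, 2 and 3, black bars are group means (n = 3), and the dotted line is the median feature of the array at 6.41. The CASP9 feature NM_001229 is higher with INZ in both genotypes, and the lowest points of CASP6 and CASP8 are p53+/+ DMSO replicate 1.

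Across the members, INZ was not followed by a change that passed the test in either genotype on its own. In p53-/- cells 0 of 12 features passed, where 1.48% of all features did, and 1 of 12 had an unadjusted p under 0.05, against 13.6% of all features. In p53+/+ cells 0 of 12 passed, where 0.862% of all features did, and 3 of 12 had an unadjusted p under 0.05, against 14.4% of all features. The median log2 difference of the 12 features was 0.19 in p53-/- cells and 0.36 in p53+/+ cells, and over all features it was -0.03 in each. Of the 12 differences, 7 were above 0 in p53-/- cells and 10 in p53+/+ cells. The share of all features above 0 was not counted. The features of a genotype share its arrays, with p53+/+ DMSO replicate 1 in each p53+/+ difference, and 4 genes count by 2 features. The differences are therefore not separate observations. The median absolute difference was 0.31 in p53-/- cells, against 0.32 over all features and 0.41 over those at or above the median feature. It was 0.38 in p53+/+ cells, against 0.34 and 0.43. The genes are described in the order of the pathway.

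**Figure D2:**
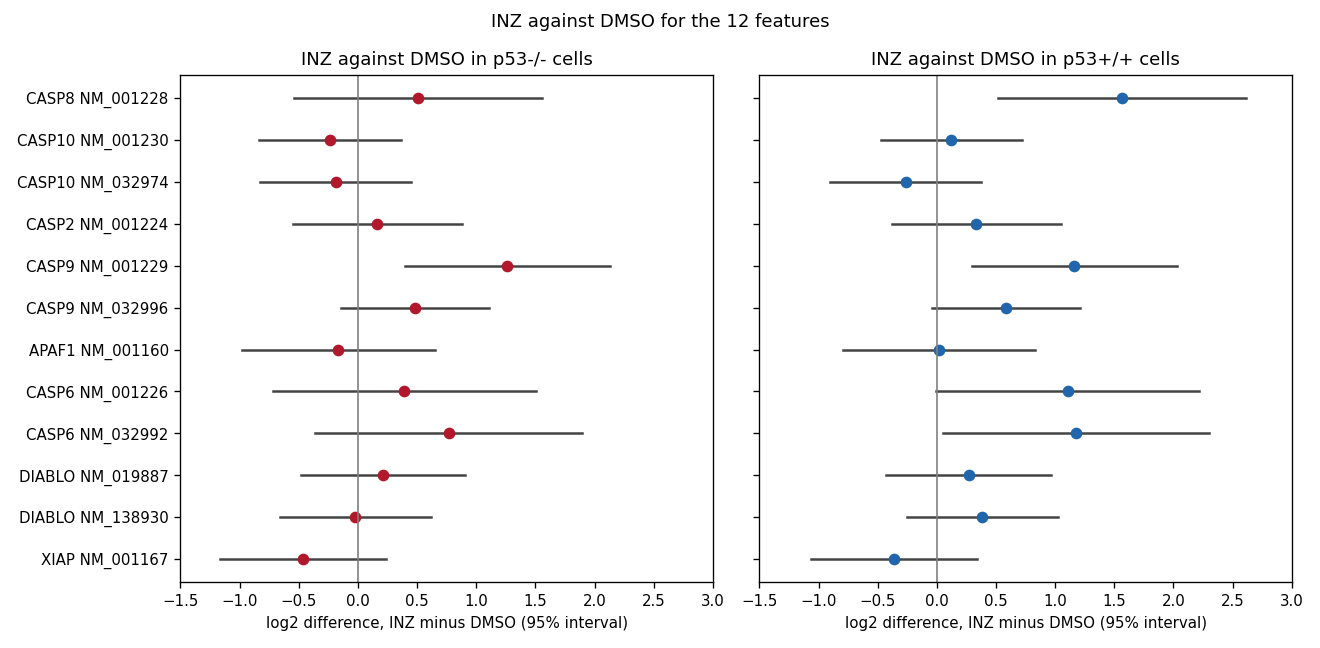
Log2 difference of INZ minus DMSO for each feature in p53-/- cells (left) and p53+/+ cells (right), with its 95% confidence interval from limma (n = 3 arrays per group). The intervals of CASP9 NM_001229 lie above 0 in both genotypes, those of CASP8 and CASP6 NM_032992 in p53+/+ cells only, and no feature passed the test after adjustment over all features.

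CASP9, the initiator caspase of the apoptosome, was higher with INZ in both genotypes by its feature NM_001229. The levels were 9.15, 8.77 and 8.86 in p53-/- INZ cells, against 8.11, 7.94 and 6.94 in p53-/- DMSO cells. They were 8.54, 7.67 and 9.30 in p53+/+ INZ cells, against 7.37, 7.02 and 7.64 in p53+/+ DMSO cells. Each INZ array lay above each DMSO array of its genotype, in p53+/+ cells narrowly, between INZ replicate 2 and DMSO replicate 3. The means were 8.93 ± 0.20 in p53-/- INZ cells against 7.66 ± 0.63 in p53-/- DMSO cells, and 8.50 ± 0.81 in p53+/+ INZ cells against 7.34 ± 0.31 in p53+/+ DMSO cells (SD, n = 3 each). The log2 difference was 1.26 in p53-/- cells (95% confidence interval, CI, 0.40 to 2.13, limma adjusted p = 0.159) and 1.16 in p53+/+ cells (95% CI 0.30 to 2.03, limma adjusted p = 0.213). The INZ effect in p53-/- cells minus that in p53+/+ cells was 0.10 (95% CI -1.13 to 1.33, limma adjusted p = 1.00), so a genotype difference of either sign within that interval was not resolved.

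Since CASP9 levels were higher with INZ in both genotypes, the INZ effect was also averaged over them, a comparison added after these values had been seen. Its p values and intervals for CASP9 do not account for that choice. NM_001229 rose 2.32-fold (95% CI 1.51 to 3.54), a log2 difference of 1.21 with a limma adjusted p of 0.0253. It was the only member feature called in this comparison, 1 of 12, where 5.68% of all features were called and 3.1% were called higher. That share of the members is no result about the group. The call did not hold under every setting. It was lost once the arrays' lower quartile entered the fit as a covariate (0.73, adjusted p = 0.427) and without the 2 arrays that stand apart (1.02, adjusted p = 0.0563). It was also lost without p53+/+ DMSO replicate 2 (1.13, adjusted p = 0.0571), p53+/+ INZ replicate 3 (1.01, adjusted p = 0.0515), p53-/- DMSO replicate 3 (1.03, adjusted p = 0.0614), p53-/- INZ replicate 1 (1.16, adjusted p = 0.0674) or p53-/- INZ replicate 3 (1.23, adjusted p = 0.0617). The difference stayed above 0 in each of the 21 settings tried.

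The other CASP9 feature, NM_032996, was the brighter one (mean over the 12 arrays 8.90, against 8.11 for NM_001229) and had smaller differences. It was at 9.47, 8.84 and 8.91 in p53-/- INZ cells, against 8.84, 8.68 and 8.24 in p53-/- DMSO cells. In p53+/+ cells it was at 9.39, 9.41 and 9.01 with INZ, against 9.04, 8.46 and 8.55 with DMSO. The groups overlapped in both genotypes, with DMSO replicate 1 of each reaching the lowest INZ array. INZ minus DMSO was 0.48 in p53-/- cells (95% CI -0.14 to 1.11, limma adjusted p = 0.510) and 0.58 in p53+/+ cells (95% CI -0.04 to 1.21, limma adjusted p = 0.381). Averaged over the genotypes it was 0.53 (95% CI 0.09 to 0.97, limma adjusted p = 0.143). With the mean of both CASP9 features in place of either, the averaged difference was 0.87 (adjusted p = 0.0260). This last p was adjusted over the 17185 named genes, each as the mean of its features, and the others over all 45033 features.

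APAF1, the scaffold of the apoptosome, was read by 1 dim feature (NM_001160), whose mean over the 12 arrays was below that of the median feature. It was at 6.01, 6.95 and 6.02 in p53-/- INZ cells and 6.50, 6.17 and 6.80 in p53-/- DMSO cells. The p53+/+ cells had 5.95, 5.93 and 6.95 with INZ and 5.76, 6.76 and 6.25 with DMSO. All 4 groups overlapped. The log2 difference with INZ was -0.16 in p53-/- cells (95% CI -0.98 to 0.65) and 0.02 in p53+/+ cells (95% CI -0.79 to 0.83), and differences within these intervals were not resolved.

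CASP8, the initiator of the death receptor pathway, had its lowest values in p53+/+ cells with DMSO. Its feature NM_001228 was at 7.90, 8.39 and 7.77 in p53-/- INZ cells and 7.75, 6.89 and 7.90 in p53-/- DMSO cells. In p53+/+ cells it was at 7.66, 6.98 and 8.79 with INZ, against 5.32, 6.40 and 7.04 with DMSO. The treatments overlapped in both genotypes, in p53+/+ cells by 1 array on each side. The log2 difference was 0.51 in p53-/- cells (95% CI -0.54 to 1.56, limma adjusted p = 0.716) and 1.56 in p53+/+ cells (95% CI 0.51 to 2.61, limma adjusted p = 0.168), the largest of the 12 features in p53+/+ cells. The genotypes' INZ effects differed by -1.05 (95% CI -2.54 to 0.43, limma adjusted p = 1.00). The p53+/+ value was 0.61 without the 2 arrays that stand apart, which hold the lowest DMSO and the highest INZ level, and the difference of the effects was then -0.10. Averaged over the genotypes the difference was 1.04 (95% CI 0.29 to 1.78, limma adjusted p = 0.0955). It was 0.16 with the lower quartile as a covariate (adjusted p = 0.916), 0.56 without the 2 arrays that stand apart (adjusted p = 0.279) and 0.79 without p53+/+ INZ replicate 3 (adjusted p = 0.204), and it passed only without p53+/+ DMSO replicate 3 (1.23, adjusted p = 0.0408) or without p53+/+ INZ replicate 2 (1.24, adjusted p = 0.0482).

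CASP10, the caspase most related to CASP8 and its neighbour on chromosome 2, where RefSeq places it between CFLAR and CASP8, had smaller differences with INZ. Both of its features were dim. NM_001230 was at 5.83, 6.09 and 5.94 in p53-/- INZ cells and 5.86, 6.37 and 6.33 in p53-/- DMSO cells, and in p53+/+ cells at 6.47, 6.96 and 6.11 with INZ and 6.37, 6.51 and 6.30 with DMSO. NM_032974 was at 5.55, 4.92 and 4.99 in p53-/- INZ cells and 5.85, 5.34 and 4.83 in p53-/- DMSO cells, and in p53+/+ cells at 4.96, 5.14 and 5.20 with INZ and 5.27, 5.46 and 5.37 with DMSO. The only non-overlapping treatment groups were those of NM_032974 in p53+/+ cells, where INZ was lower. In p53-/- cells the INZ difference was -0.24 (95% CI -0.83 to 0.36) for NM_001230 and -0.19 (95% CI -0.82 to 0.45) for NM_032974. In p53+/+ cells, that of NM_001230 was 0.12 (95% CI -0.48 to 0.72) and that of NM_032974 was -0.26 (95% CI -0.90 to 0.37).

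CASP2, an initiator caspase activated on the PIDDosome, was read by 1 bright feature, NM_001224. It was at 10.48, 10.36 and 11.19 in p53-/- INZ cells and 10.38, 10.31 and 10.84 in p53-/- DMSO cells. The p53+/+ cells had 10.23, 9.86 and 10.45 with INZ and 9.34, 9.82 and 10.37 with DMSO. Treatments overlapped in both genotypes, with differences of 0.16 (95% CI -0.55 to 0.88) in p53-/- cells and 0.33 (95% CI -0.38 to 1.05) in p53+/+ cells.

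CASP6, an executioner caspase that cleaves nuclear lamins, had mostly higher values with INZ by both of its features, none past the test. NM_032992 was at 8.46, 8.55 and 8.59 in p53-/- INZ cells, against 7.39, 7.57 and 8.34 in p53-/- DMSO cells. In p53+/+ cells it was at 7.92, 8.0 and 8.01 with INZ, against 5.14, 7.47 and 7.80 with DMSO. Each INZ array was above each DMSO array of its genotype, and the 3 INZ arrays of a genotype lay close together. INZ minus DMSO was 0.77 in p53-/- cells (95% CI -0.36 to 1.89, limma adjusted p = 0.575) and 1.18 in p53+/+ cells (95% CI 0.05 to 2.30, limma adjusted p = 0.328). Without p53+/+ DMSO replicate 1, at 5.14, the p53+/+ difference was 0.34. Averaged over the genotypes it was 0.97 (95% CI 0.18 to 1.77, limma adjusted p = 0.140). It was 0.32 with the lower quartile as a covariate (adjusted p = 0.857), 0.55 without the 2 arrays that stand apart (adjusted p = 0.190) and 0.56 without p53+/+ DMSO replicate 1 (adjusted p = 0.152), and it passed only without p53+/+ DMSO replicate 3 (1.22, adjusted p = 0.0463).

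The other CASP6 feature, NM_001226, was at 8.45, 8.85 and 8.65 in p53-/- INZ cells and 8.44, 7.78 and 8.55 in p53-/- DMSO cells. The p53+/+ cells had 8.16, 7.30 and 8.53 with INZ and 5.44, 7.31 and 7.93 with DMSO. Its treatments overlapped in both genotypes, and p53+/+ DMSO replicate 1 was again far below the others. The log2 difference was 0.39 in p53-/- cells (95% CI -0.72 to 1.5) and 1.10 in p53+/+ cells (95% CI -0.01 to 2.22), and the p53+/+ difference was 0.38 without p53+/+ DMSO replicate 1. Averaged over the genotypes it was 0.75 (95% CI -0.04 to 1.53, limma adjusted p = 0.250).

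**Figure D3:**
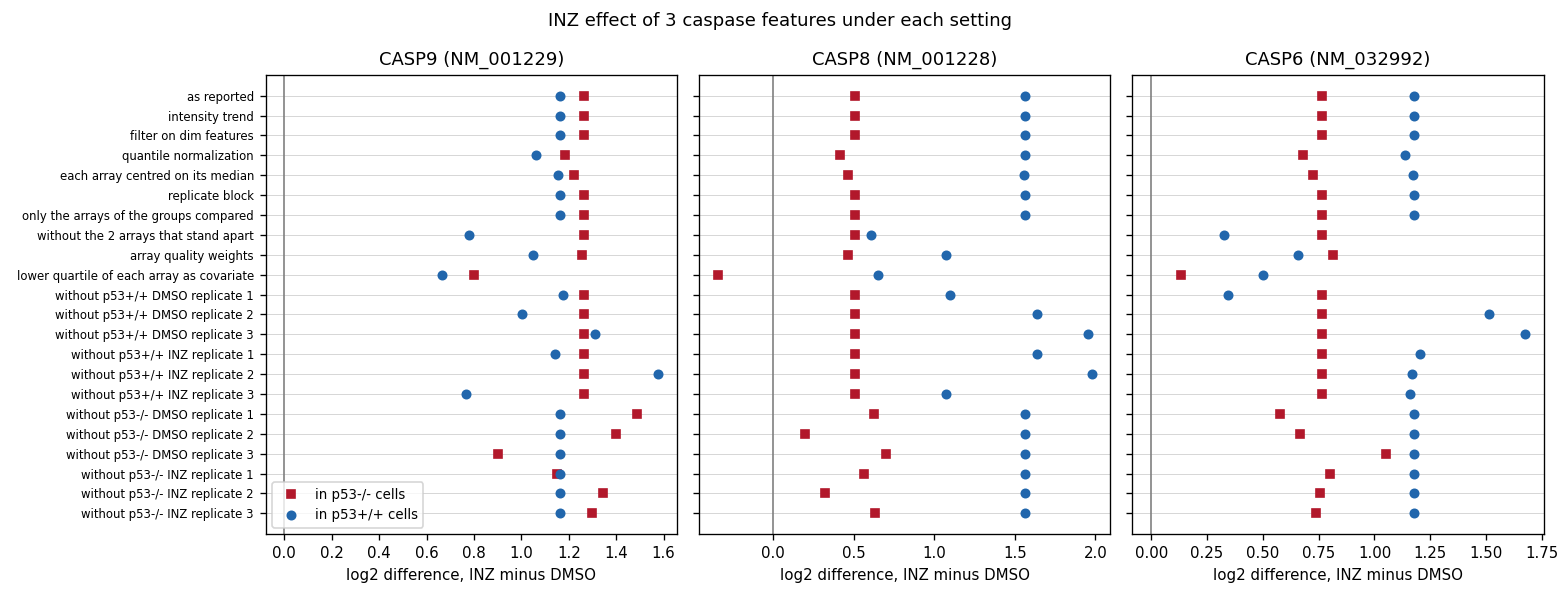
Log2 difference of INZ minus DMSO in p53-/- cells (red squares) and p53+/+ cells (blue circles) for CASP9 NM_001229, CASP8 and CASP6 NM_032992 as reported and under each of 21 other settings, down the page. CASP9 NM_001229 stays at 0.67 or higher throughout, while the p53+/+ values of CASP8 and CASP6 NM_032992 drop to 0.61 and 0.33 without the 2 arrays that stand apart, and CASP8 in p53-/- cells turns to -0.34 with the lower quartile as a covariate. The brighter features of CASP9 and CASP6 are not shown. In p53-/- and p53+/+ cells, CASP9 NM_032996 falls as low as 0.29 and 0.46, and CASP6 NM_001226 as low as -0.46 and 0.11.

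The inhibitor XIAP and its antagonist DIABLO gave small differences. XIAP was read by 1 feature (NM_001167), whose mean over the 12 arrays, 6.52, was only just above the median feature at 6.41. It was at 6.16, 6.16 and 6.48 in p53-/- INZ cells, against 7.09, 6.50 and 6.60 in p53-/- DMSO cells. In p53+/+ cells it was at 6.86, 6.50 and 5.73 with INZ and 7.13, 6.63 and 6.43 with DMSO. The INZ arrays lay below the DMSO arrays in p53-/- cells by a narrow margin and overlapped with them in p53+/+ cells. INZ minus DMSO was -0.46 in p53-/- cells (95% CI -1.16 to 0.24, limma adjusted p = 0.589) and -0.37 in p53+/+ cells (95% CI -1.07 to 0.34, limma adjusted p = 0.642). With the lower quartile as a covariate it was -0.06 in p53-/- cells and 0.07 in p53+/+ cells.

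DIABLO was read by 2 bright features. NM_019887 was at 9.65, 9.48 and 9.23 in p53-/- INZ cells and 9.60, 8.99 and 9.13 in p53-/- DMSO cells, and in p53+/+ cells at 8.75, 9.31 and 9.79 with INZ and 8.55, 9.27 and 9.22 with DMSO. NM_138930 was at 9.07, 9.80 and 9.37 in p53-/- INZ cells and 9.63, 9.33 and 9.35 in p53-/- DMSO cells, and in p53+/+ cells at 8.76, 9.33 and 9.48 with INZ and 8.77, 8.49 and 9.14 with DMSO. Treatments overlapped for both features in both genotypes. For NM_019887 the difference was 0.21 (95% CI -0.48 to 0.91) in p53-/- cells and 0.27 (95% CI -0.43 to 0.97) in p53+/+ cells, and for NM_138930 it was -0.02 (95% CI -0.66 to 0.62) in p53-/- cells and 0.39 (95% CI -0.26 to 1.03) in p53+/+ cells.

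Features were also counted by whether the groups overlapped. In p53-/- cells, 2 of 12 features had every INZ array above every DMSO array (CASP9 NM_001229 and CASP6 NM_032992), against 13.3% of all features, and 1 had them below (XIAP), against 12.5%. In p53+/+ cells, the same 2 features were higher without overlap, against 7.39% of all features, and 1 was lower (CASP10 NM_032974), against 8.51%. With 3 arrays against 3, the smallest two-sided p of an exact permutation test is 0.1, so such a separation alone cannot pass a threshold of 0.05.

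Between the genotypes, 0 of 12 features passed the test with INZ, where 0.484% of all features did, and 0 of 12 with DMSO, where 0.211% did. At an unadjusted p under 0.05 there were 0 with INZ, against 10.3% of all features, and 2 with DMSO, against 12%. The 2 were CASP6 NM_001226 and CASP8. CASP6 NM_001226 differed between p53-/- and p53+/+ cells with DMSO by 1.36 (95% CI 0.25 to 2.47, limma adjusted p = 0.341), and without p53+/+ DMSO replicate 1 by 0.64. CASP8 differed with DMSO by 1.26 (95% CI 0.21 to 2.31, limma adjusted p = 0.349), and without that array by 0.80. For CASP6 NM_032992 the difference with DMSO was 0.97 (95% CI -0.16 to 2.09), and 0.13 without that array.

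With INZ, the differences of the same features between p53-/- and p53+/+ cells were 0.65 (95% CI -0.46 to 1.76) for CASP6 NM_001226, 0.55 (95% CI -0.57 to 1.68) for CASP6 NM_032992 and 0.21 (95% CI -0.84 to 1.26) for CASP8. Only for CASP6 NM_032992 did the groups not overlap, with 8.46 to 8.59 in p53-/- INZ cells and 7.92 to 8.01 in p53+/+ INZ cells. CASP2 differed between p53-/- and p53+/+ cells by 0.50 with INZ (95% CI -0.22 to 1.21, limma adjusted p = 0.648) and by 0.67 with DMSO (95% CI -0.05 to 1.38, limma adjusted p = 0.440), with overlapping groups in both. In all, 1 of 12 features was higher without overlap in p53-/- INZ cells (7.39% of all features) and 1 was lower, CASP10 NM_001230 (8.21%). With DMSO, 1 was higher, DIABLO NM_138930 at 9.33 to 9.63 in p53-/- cells against 8.49 to 9.14 in p53+/+ cells (8.87%), and 0 were lower (8.77%).

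The difference of the INZ effects between genotypes passed for 0 of 12 features, where 0.0178% of all features passed, and 0 of 12 had an unadjusted p under 0.05, against 4.71%. The 12 values lay between -1.05 (CASP8) and 0.10 (CASP9 NM_001229), with 10 below 0 and a median of -0.18, against -0.02 over all features. The p53+/+ DMSO arrays, which include replicate 1, enter each of these values, so the 12 are not separate observations.

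**Figure D4:**
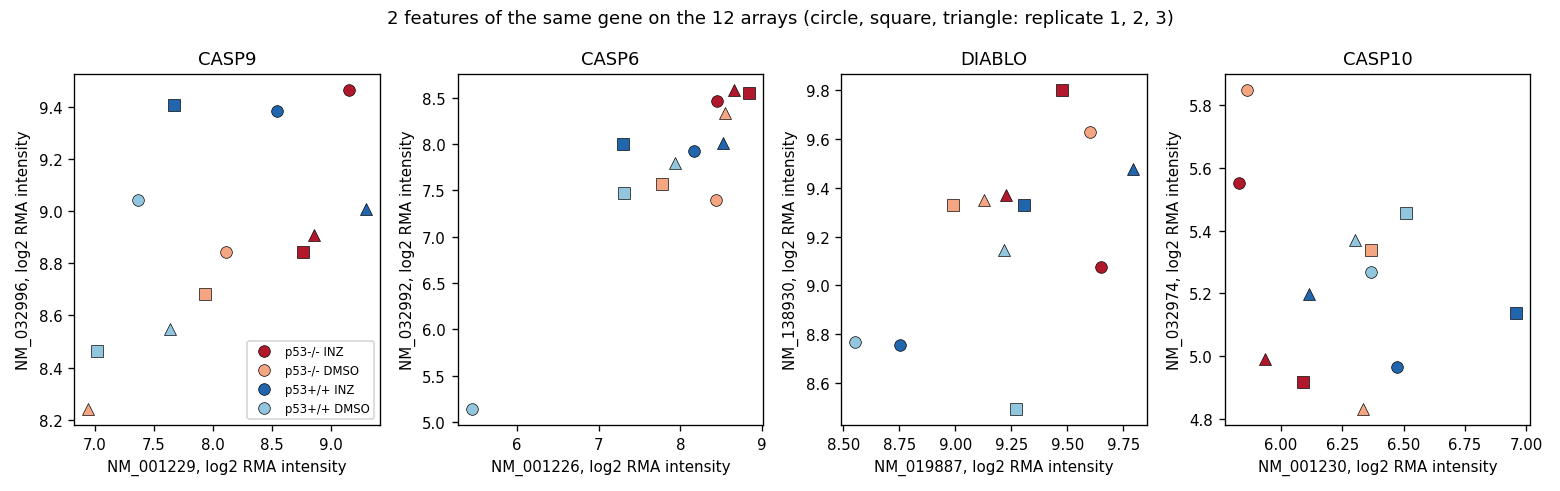
Levels of the 2 features of CASP9, CASP6, DIABLO and CASP10 on the 12 arrays, each axis in log2 RMA intensity, coloured by group, with circles, squares and triangles for replicates 1, 2 and 3. The CASP6 features follow each other (r = 0.904), with p53+/+ DMSO replicate 1 alone at the lower left, and the CASP10 features do not (r = -0.310).

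The 2 features of a gene were set against each other over the 12 arrays, for 4 genes, with permutation tests adjusted over the 4. The permutations ignored the groups, so differences between groups enter these p values. The r within groups was not tested. For CASP6, Pearson's r was 0.904 (permutation p = 0.00364, adjusted 0.0146) and Spearman's rho was 0.797 (permutation p = 0.00296, adjusted 0.0118). Without the 2 arrays farthest from the median, r was 0.739, and within groups it was 0.845. For CASP9, r was 0.586 (permutation p = 0.0465, adjusted 0.0905) and rho was 0.566 (permutation p = 0.0582, adjusted 0.116). Within groups r was 0.190, so the features followed each other little among arrays of a group. For DIABLO, r was 0.553 (permutation p = 0.0679, adjusted 0.0905) and rho 0.483 (permutation p = 0.115, adjusted 0.154), with 0.452 within groups. For CASP10, whose features are both dim, r was -0.310 (permutation p = 0.318, adjusted 0.318) and rho -0.238 (permutation p = 0.455, adjusted 0.455). Without the 2 farthest arrays, r was 0.499 for CASP9, 0.413 for DIABLO and -0.198 for CASP10. Where the probes of each feature lie on the transcripts is not stated in any source used here.

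Other genes of the pathway were counted from 4 lists, with 1 feature per gene. These were 11 executioner caspases and substrates, 11 inhibitors of apoptosis and their regulators, 10 adaptors of initiator caspases and 8 partners of the apoptosome. DFFB and PIDD1 were listed but had no named feature here. Of these genes, 1 inhibitor regulator rose with INZ in p53+/+ cells (background 0.862%). With INZ in p53-/- cells 0 of each list passed (background 1.48%). The same held between genotypes (0.484% with INZ, 0.211% with DMSO) and in the difference of the effects (0.0178%). The median INZ difference in p53-/- cells was 0.39 for the executioners, 0.22 for the inhibitors, 0.35 for the adaptors and -0.02 for the partners, against -0.03 for all features. In p53+/+ cells it was 0.11 for the executioners, 0.37 for the inhibitors, 0.11 for the adaptors and -0.06 for the partners, again against -0.03.

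The gene that rose was SEPTIN4 (NM_080415), one of whose products, ARTS, binds XIAP and promotes its degradation. It was at 8.85, 8.12 and 8.20 in p53-/- INZ cells, against 7.65, 7.69 and 7.59 in p53-/- DMSO cells. The p53+/+ cells had 8.98, 9.15 and 9.26 with INZ, against 7.40, 7.28 and 7.92 with DMSO. The treatments did not overlap in either genotype. The log2 difference was 0.74 in p53-/- cells (95% CI 0.14 to 1.34, limma adjusted p = 0.242) and 1.59 in p53+/+ cells (95% CI 0.99 to 2.20, limma adjusted p = 0.0203), and the effects differed by -0.85 (95% CI -1.70 to -0.0018, limma adjusted p = 1.00). The p53+/+ call was lost without p53+/+ DMSO replicate 1 (adjusted p = 0.0641) or 2 (0.0701), without p53+/+ INZ replicate 1 (0.0584), 2 (0.0609) or 3 (0.0640), and in 3 other settings, while the difference stayed between 1.42 and 1.79. Averaged over the genotypes it was 1.17 (adjusted p = 0.00438), and it passed with each array left out in turn but not with the lower quartile as a covariate (1.00, adjusted p = 0.0806).

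In the averaged comparison 1 adaptor rose as well, CASP8AP2 (NM_012115), which encodes FLASH, a protein named for its binding to caspase-8 that also acts in histone RNA processing. It was at 7.14, 7.24 and 7.48 in p53-/- INZ cells and 6.37, 6.05 and 7.19 in p53-/- DMSO cells, and in p53+/+ cells at 7.54, 7.25 and 7.30 with INZ and 6.16, 5.67 and 6.90 with DMSO. The groups overlapped in p53-/- cells and did not in p53+/+ cells. The averaged difference was 0.93 (95% CI 0.40 to 1.47, limma adjusted p = 0.0430), and it passed in 7 of 21 other settings and in 2 of the 12 that leave out an array. In the averaged comparison 1 of 11 inhibitors (SEPTIN4), 1 of 10 adaptors, 0 of 11 executioners and 0 of 8 partners were called. Over all features 5.68% were called and 3.1% were called higher, so these counts are no result about the lists.

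The sum of the leukocyte markers was higher with INZ in p53-/- cells and overlapped between treatments in p53+/+ cells. The summed intensity of the 4 leukocyte markers was 508 to 574 on the p53-/- INZ arrays, 219 to 317 on the p53-/- DMSO arrays, 331 to 1026 on the p53+/+ INZ arrays and 180 to 353 on the p53+/+ DMSO arrays. Of the 4, only CD68, a lysosomal protein, was above the median feature, and it rose in the averaged comparison by 1.98 (95% CI 1.27 to 2.70, limma adjusted p = 0.00426). PTPRC, CD3E and CD14 were below it, and none of them was called. Their averaged differences were 0.12 for PTPRC, -0.58 for CD3E and -0.74 for CD14, and the median of the 4 markers was -0.23. The part of these markers in the differences of CASP9, CASP8 and CASP6 was not tested. That of the lower quartile was not tested beyond the covariate fit. In p53-/- cells the lower quartile did not overlap between treatments, so that fit cannot fully tell it apart from treatment there.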

How the data were processed

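The deposited values are linear RMA intensities that the authors computed from NimbleGen one-colour arrays; settings of RMA are not stated in any source used here. They were log2-transformed with no pseudocount. Of 45033 features, 18188 were named by the platform table and 678 by RefSeq accession. All features were fitted by limma (3.58.1; R 4.3.3). The 12 arrays entered 1 fit as 4 group means, followed by Benjamini-Hochberg adjustment over all features. The members, gene lists and promoter motifs were chosen with earlier results of these data known. The INZ effect averaged over genotypes was added after the values were seen. Every member feature is reported, as are list genes past the threshold. Alternatives were an intensity trend, quantile normalization, median centring, a filter on dim features, a replicate block, each array left out, only the groups compared, without 2 arrays that stand apart, array weights, a lower quartile covariate and the mean of a gene's features. The code was tested on simulated data. Some listed genes are not reported here. Promoters are RefSeq windows on GRCh38.p14. Correlations used 100000 permutations (scipy 1.17.1). The number of arrays, 3 per group, limits the precision.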

Additional observations from a re-analysis of the deposited data

How the results depend on the processing

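The count of member features called was 0 in each of the 5 comparisons and stayed 0 with each array left out in turn. For INZ in p53-/- cells it was 1 (CASP9 NM_001229) with only the arrays compared and with array weights, at adjusted p values of 0.0384 and 0.0300. For the averaged INZ effect it was 1 as reported, 0 without the 2 arrays that stand apart, 0 with the lower quartile as a covariate and 2 with array weights, where CASP9 NM_032996 also passed (0.68, adjusted p = 0.0407), and it ranged over 0 to 3 with an array left out. Same-numbered replicates did not deviate together (18 pairs, r -0.19 to 0.33), and a paired fit with the replicate block called 0 member features in the 5 comparisons and 1 in the averaged effect.

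Signs that turned all belong to differences that were not called. With the lower quartile as a covariate, INZ in p53-/- cells gave -0.25 for CASP2, -0.46 for CASP6 NM_001226, -0.34 for CASP8, 0.011 for CASP10 NM_001230 and -0.23 for DIABLO NM_019887. INZ in p53+/+ cells then gave -0.42 for APAF1, 0.070 for XIAP, -0.11 for CASP2 and -0.20 for DIABLO NM_019887. The genotypes with INZ gave -0.061 for CASP6 NM_001226 and -0.50 for CASP8, and the averaged effect of CASP6 NM_001226 was -0.13. Without the 2 arrays that stand apart, INZ in p53+/+ cells gave -0.57 for APAF1, 0.15 for XIAP, -0.052 for CASP2 and -0.22 for DIABLO NM_019887. With array weights it gave -0.40 for APAF1 and -0.082 for DIABLO NM_019887, with quantile normalization -0.0051 for APAF1, and with the mean of both features -0.072 for CASP10. With an array left out, INZ in p53+/+ cells ranged from -0.32 to 0.27 for APAF1 and from -0.10 to 0.32 for CASP10 NM_001230. In p53-/- cells it ranged from -0.44 to 0.069 for CASP10 NM_032974, from -0.094 to 0.33 for CASP2 and from -0.21 to 0.15 for DIABLO NM_138930, and the genotype difference of CASP8 with INZ ranged from -0.21 to 0.70. The cause of these turns was not tested.

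Counts over all features depended on the fit. For INZ in p53-/- cells 666 features passed, against 2705 with only the arrays compared, 2525 without the 2 arrays and 2996 with array weights. For INZ in p53+/+ cells 388 passed, against 9 with only the arrays compared, 166 without the 2 arrays and 129 with the covariate. For the genotypes 218 passed with INZ, against 129 with only the arrays compared, 4298 without the 2 arrays and 2469 with weights, and 95 with DMSO, against 6 with only the arrays compared, 190 with weights and 34 with the covariate. For the difference of the effects 8 passed, against 15 with an intensity trend, 30 with weights and 22 with the covariate. For the averaged effect 2559 passed, against 627 with the covariate. With 1 array left out, the counts ranged over 229 to 1313 for INZ in p53-/- cells, 81 to 1185 for INZ in p53+/+ cells, 59 to 1652 for the genotypes with INZ, 17 to 525 with DMSO and 1228 to 3972 for the averaged effect, so the background shares depend on which arrays are used. The highest counts came without p53+/+ INZ replicate 3 (INZ in p53-/- cells, genotypes with INZ) or without p53+/+ DMSO replicate 3 (the other 3). The TP53I3 calls held in each of the 21 settings.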

Other observations

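For each member gene, the 2 named genes whose log2 levels followed it most closely over the 12 arrays were found among 17177 genes outside the members. These are descriptions over arrays that share treatment, genotype and the array that stands apart. CASP8 was closest to MAFF (r = 0.968) and PRCP (r = 0.959). CASP6 by NM_001226 was closest to NOL11 (r = 0.980) and NBPF15 (r = 0.980), whose own levels span 5.50 to 10.15 and 5.84 to 10.38. CASP9 by NM_032996 was closest to PAQR6 (r = 0.925) and CDKN1C (r = 0.911). CASP2 was closest to TES (r = 0.950) and TUBA1C (r = 0.942), and DIABLO by NM_019887 to ENO1 (r = 0.924) and LIG3 (r = 0.917). XIAP was closest to RBKS (r = 0.914) and RPL29 (r = 0.907). APAF1 was closest to ADAR (r = 0.848) and OR8H1 (r = 0.841), of which OR8H1 was below the median feature on average. CASP10 by NM_001230 was closest to OR5M11 (r = 0.917) and RNASE8 (r = 0.903), both below the median feature on average.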
